A study of Mus musculus with 7 samples.

Results

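The 10 genes described here mark liver sinusoidal endothelial cells (LSEC) in mouse liver, and they were examined in precision-cut liver slices (PCLS) cultured with or without valproate. They are Stab1, Stab2, Lyve1, Clec4g, Fcgr2b, Kdr, Pecam1, Ehd3, Bmp2 and Bmp6. They were chosen by name as genes of this cell type, with earlier results of these data known. Each was matched to the gene of that symbol in the GENCODE annotation of GRCm38. All 10 were found among the 55487 genes of the count table, all 10 had a count in at least 1 library, and 8 passed the filter on low counts and were tested. The question was whether genes that mark the same cell type moved together when the slices were cultured with valproate.

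PCLS are thin discs of living liver that keep hepatocytes, endothelial cells, stellate cells and macrophages in place. The slices came from healthy male BALB/c mice without genetic modification and were kept in supplemented Williams' Medium E for 3 days, alone in 3 CTR libraries or with 2.5 mM valproic acid (VPA), an inhibitor of class I histone deacetylases, in 4 VPA libraries. The study describes a biological repeat as another liver, and the sample labels carry slice culture numbers of which 71, 72 and 74 occur in both groups and 73 in VPA only. The labels do not say what these numbers mark, so p-values measure the spread between these libraries. No uncultured liver is among the 7 libraries, and the RNA is that of the whole slice.

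LSEC line the liver sinusoids with a thin, fenestrated wall and take up waste molecules from the blood through scavenger and endocytic receptors. They also signal to their neighbours: Bmp2 and Bmp6 from these cells drive hepcidin expression in hepatocytes, Wnt ligands maintain the pericentral hepatocyte programme, and VEGF received through Kdr helps to keep the endothelium differentiated. LSEC are known for losing these features quickly in culture.

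The libraries were made by sequencing the 3′ end of polyadenylated RNA, so reads do not accumulate with transcript length. Levels are given in CPM (counts scaled to library size after TMM normalization). How completely the reads of each gene were counted was not tested, so an order of genes by CPM describes the listed values only. The libraries held 1743675 to 4773750 counts on genes in CTR and 1400887 to 3102450 in VPA, and a count of 0 allows up to 3 counts, or 0.591 to 2.41 CPM, for counting error only. Zeros were more frequent in the VPA libraries. Of the genes tested, 1.66% to 3.89% were listed at 0 in a CTR library and 6.92% to 14.3% in a VPA library. Zeros also stood where counts were predicted: among genes for which the other libraries of the same group predicted at least 10 counts, 1.59% to 3.46% were at 0 in a CTR library and 4.85% to 11.8% in a VPA library, in 1 case against 707 predicted counts. The share of counts on mitochondrial genes was 14.5% to 27.7% in CTR and 23.9% to 32.5% in VPA. The part of these differences in the results below was not tested, and zeros are therefore given as listed, library by library, and any bound on a fold covers counting error only.

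The members lie on 10 chromosomes of GRCm38. Their promoter windows were searched for a shared regulatory word, and 3 windows are shown, with at most 3 bases inside the annotated gene. ETS factors, among them Erg, act across endothelial genes and bind sites built on GGAA, so the word AGGAAG was searched on both strands in the 250 bases before each RefSeq start (GRCm38.p6), present for 7 of the 10 members. It occurred in 3 of the 7 (Stab1, Stab2 and Clec4g, 42.9%), against 29.5% of all 32851 windows. The windows of Fcgr2b, Ehd3 and Bmp6 lay wholly inside the GENCODE gene, and 83 bases of that of Stab2 did. These windows are therefore not all upstream of the annotated gene. The GATA-type word AGATAA, searched in the same way, occurred in 0 of the 7 against 9.99% of all windows. Capitals mark AGGAAG or its reverse complement in the upstream bases of Stab1 (chr14:31168642-31168891), Clec4g (chr8:3720652-3720901) and Kdr (chr5:75978459-75978705), all on the minus strand and written 5′ to 3′ towards the gene:
Stab1: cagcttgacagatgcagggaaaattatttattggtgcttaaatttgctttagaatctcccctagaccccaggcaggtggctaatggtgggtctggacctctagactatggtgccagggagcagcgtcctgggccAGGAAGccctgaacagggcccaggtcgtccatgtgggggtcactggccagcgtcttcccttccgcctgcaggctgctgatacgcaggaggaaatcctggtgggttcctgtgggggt
Clec4g: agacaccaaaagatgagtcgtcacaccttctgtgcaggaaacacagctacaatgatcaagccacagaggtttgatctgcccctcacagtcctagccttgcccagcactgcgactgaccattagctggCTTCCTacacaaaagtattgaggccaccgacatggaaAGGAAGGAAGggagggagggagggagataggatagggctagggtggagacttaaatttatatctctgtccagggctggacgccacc
Kdr: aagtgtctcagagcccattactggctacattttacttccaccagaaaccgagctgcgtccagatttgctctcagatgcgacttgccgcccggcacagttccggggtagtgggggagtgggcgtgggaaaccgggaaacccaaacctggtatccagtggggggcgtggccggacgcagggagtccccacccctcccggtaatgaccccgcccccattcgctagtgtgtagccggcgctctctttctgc
Clec4g held the word at 3 places, 2 of them overlapping, Stab1 at 1 place and Kdr at none. Stab2, not shown, held its reverse complement at 1 place. Among the pan-endothelial genes described further on, with 16 windows from 11 genes, 8 windows (50.0%) held AGGAAG and 3 (18.8%) held AGATAA. A match is a description of the letters and not a binding site.

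In the CTR libraries the members covered a wide range of levels. Kdr had the highest mean level (74.8 CPM), followed by Ehd3 (61.4), Pecam1 (54.1), Stab1 (42.1), Bmp2 (38.3), Lyve1 (12.2), Stab2 (10.3), Fcgr2b (7.91) and Bmp6 (2.54), and Clec4g had no count. The ranges of the 3 CTR libraries overlapped between each neighbour from Kdr down to Stab1 and again from Lyve1 down to Fcgr2b, and did not overlap between Stab1 and Bmp2, Bmp2 and Lyve1, or Fcgr2b and Bmp6. Each member except Clec4g was counted in every CTR library.

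**Figure D1:**
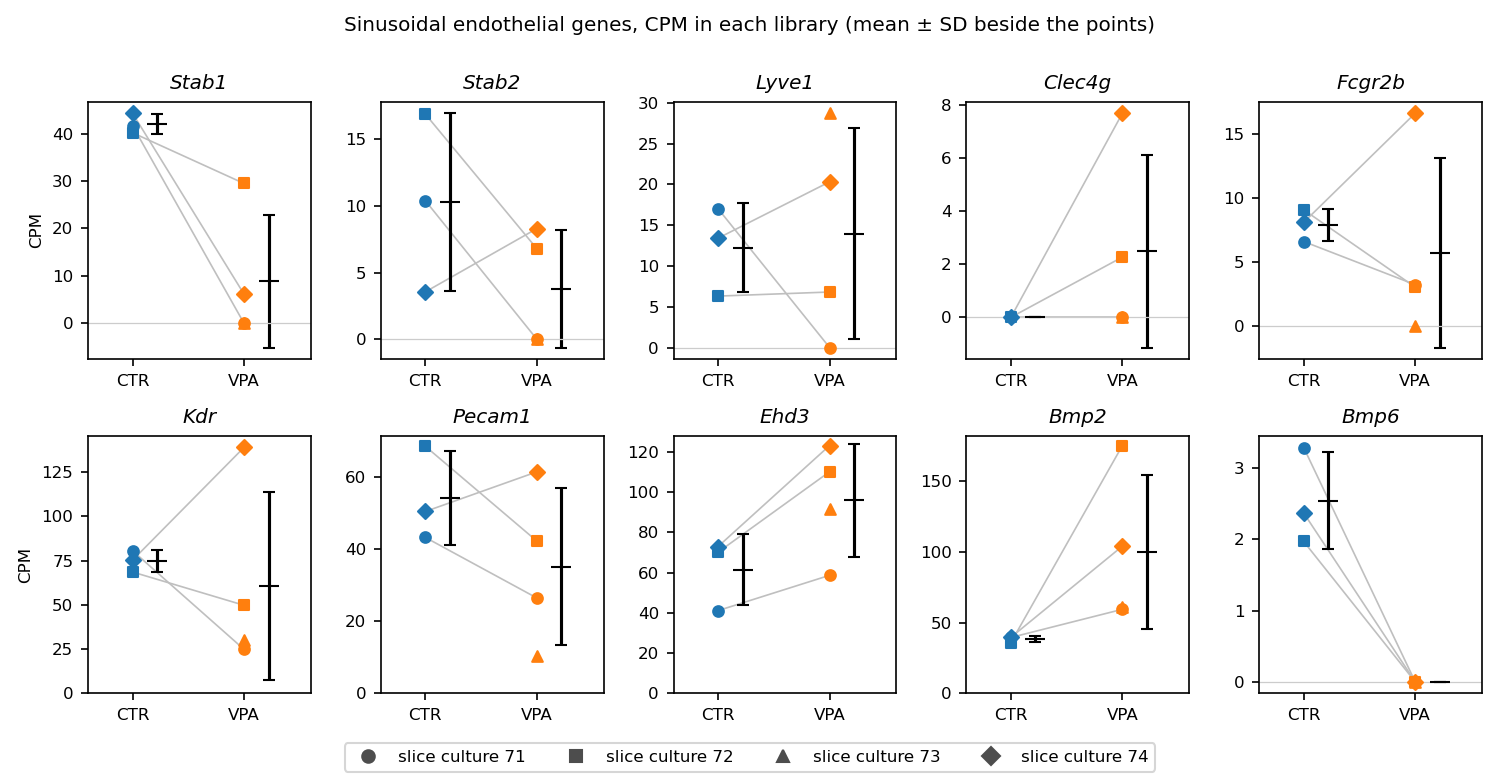
The level of each of the 10 genes in CPM (vertical axes, linear, a different range for each gene) is plotted for the 3 CTR libraries (blue) and 4 VPA libraries (orange), with the mean ± SD beside the points, symbols for slice culture number and lines between libraries of the same number. Bmp2 lies higher in all 4 VPA libraries than in any CTR library, Stab1 and Bmp6 lie lower, and Kdr, Fcgr2b and Stab2 divide within the VPA group.

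The scavenger and endocytic receptors differed from each other in VPA: Stab1 was lower in every VPA library, Stab2, Lyve1 and Fcgr2b overlapped CTR, and Clec4g was counted in VPA only. Stab1 (stabilin-1, ENSMUSG00000042286, chr14:31139013-31168641, minus strand), a scavenger receptor that takes up modified lipoproteins and matrix fragments and is also made by some macrophages, was at 40.2, 44.3 and 41.7 CPM in CTR replicates 1 to 3 and at 0, 6.15, 0 and 29.5 CPM in VPA replicates 1 to 4. The CTR libraries lay close together, and all 4 VPA libraries lay below them. The log2 fold change was -2.25 (SE 1.3, 95% confidence interval -5.29 to 0.78, edgeR adjusted p = 0.744), with an exact permutation p of 0.0571 (two-sided, 35 assignments of the libraries, smallest possible 0.0286). Leaving out each other library than VPA replicate 4 in turn gave log2 fold changes of -2.29 to -1.84 (edgeR unadjusted p = 0.14 to 0.21). Leaving out VPA replicate 4 gave -4.08 (edgeR unadjusted p = 0.0126, adjusted p = 0.299). That library was the VPA library nearest to CTR for Stab1, so a larger difference without it follows from the choice. The 3′ end of Stab1 overlaps the 3′ end of Nt5dc2 on the other strand, and because the use of strand in the counting is not given, reads there cannot be assigned with certainty. Nt5dc2 had 9, 29 and 5 counts in CTR and 0, 125, 60 and 13 in VPA.

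Stab2 (stabilin-2, ENSMUSG00000035459, chr10:86841198-87008025, minus strand), the main hyaluronan clearance receptor of the sinusoid, was at 16.9, 3.55 and 10.4 CPM in CTR and at 0, 8.3, 0 and 6.8 CPM in VPA. It was listed at 0 in VPA replicates 1 and 3, as Stab1 was, while the other two VPA libraries lay within the CTR range. The log2 fold change of -1.39 (SE 1.4) was within the spread of the libraries (edgeR adjusted p = 0.908, exact permutation p = 0.229), and it ranged from -2.15 without VPA replicate 2 to -0.85 without CTR replicate 1. Lyve1 (ENSMUSG00000030787, chr7:110850607-110863239, minus strand), a hyaluronan receptor shared by LSEC and lymphatic endothelium, was at 6.3, 13.4 and 17 CPM in CTR and at 28.7, 20.3, 0 and 6.8 CPM in VPA. It was highest in VPA replicate 1, a library in which Stab1, Stab2 and Fcgr2b were listed at 0, and it was listed at 0 in VPA replicate 3, where Stab1 and Stab2 were also at 0. Its log2 fold change was 0.2 (95% confidence interval -2.43 to 2.84, edgeR adjusted p = 0.982), and its sign turned when libraries were left out or a block was added.

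Fcgr2b (ENSMUSG00000026656, chr1:170958617-170976547, minus strand), the inhibitory IgG receptor through which LSEC clear small immune complexes and which B cells and macrophages also carry, was at 9.06, 8.08 and 6.58 CPM in CTR and at 0, 16.6, 3.21 and 3.02 CPM in VPA. In VPA replicates 1, 3 and 4 Fcgr2b lay below its CTR range, and in VPA replicate 2 it lay above (log2 fold change -0.43, SE 1.2, edgeR adjusted p = 0.968), and the log2 fold change was -1.92 without VPA replicate 2 and -0.01 without VPA replicate 1. The B cell genes Cd79a and Cd79b had no count in any library. Clec4g (LSECtin, ENSMUSG00000074491, chr8:3707064-3720651, minus strand), a C-type lectin that binds glycans and is largely restricted to the sinusoid in liver, had 0 counts in all 3 CTR libraries and 0, 25, 0 and 3 counts in VPA. Of its 28 counts 25 came from VPA replicate 2. Without that library 3 counts were left in VPA, no more than a count of 0 allows, so no fold is given. It did not pass the filter for the test, and the exact permutation p was 0.429.

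Kdr and Pecam1 are shared by all endothelium of the slice. Kdr (VEGF receptor 2, ENSMUSG00000062960, chr5:75932827-75978458, minus strand), the main signalling receptor for VEGF-A, was at 68.6, 75.3 and 80.6 CPM in CTR and at 30, 139, 24.9 and 49.8 CPM in VPA. VPA replicates 1, 3 and 4 lay below every CTR library and VPA replicate 2 lay far above them, so that the group means, 74.8 ± 6.03 (SD, n = 3) and 60.9 ± 53 (SD, n = 4), describe neither pattern. The log2 fold change over all libraries was -0.28 (SE 0.572, edgeR adjusted p = 0.961). It was -1.09 without VPA replicate 2 (edgeR unadjusted p = 0.00924, adjusted p = 0.426), -0.04 without VPA replicate 1 (unadjusted p = 0.94) and -0.02 without VPA replicate 3 (unadjusted p = 0.966). Pecam1 (CD31, ENSMUSG00000020717, chr11:106654217-106750628, minus strand), an adhesion molecule of endothelial junctions that platelets and leukocytes also carry, was at 68.6, 50.5 and 43.3 CPM in CTR and at 10.4, 61.5, 26.5 and 42.3 CPM in VPA. It showed the same division as Kdr, with VPA replicates 1, 3 and 4 below all CTR libraries and VPA replicate 2 within their range (54.1 ± 13 against 35.2 ± 21.8 CPM, SD, n = 3 and 4). The log2 fold change was -0.61 (SE 0.524, edgeR adjusted p = 0.886), and it ranged from -1.03 without VPA replicate 2 to -0.3 without VPA replicate 1.

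Ehd3 and Bmp2 had higher means in VPA. Ehd3 (ENSMUSG00000024065, chr17:73804134-73832094, plus strand), an EH-domain protein of endosomal recycling that in liver is concentrated in LSEC, was at 70.1, 72.9 and 41.1 CPM in CTR and at 91.4, 123, 58.6 and 110 CPM in VPA. Ehd3 exceeded its CTR range in VPA replicates 1, 2 and 4 and lay inside it in VPA replicate 3. The means were 61.4 ± 17.6 CPM (SD, n = 3) and 95.7 ± 27.9 CPM (SD, n = 4), and the log2 fold change was 0.64 (SE 0.311, 95% confidence interval -0.08 to 1.36, edgeR adjusted p = 0.66, exact permutation p = 0.171). It was 0.81 without VPA replicate 3 (edgeR unadjusted p = 0.0209, adjusted p = 0.436) and 0.4 without CTR replicate 3 (unadjusted p = 0.246).

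The bone morphogenetic protein ligands split. Bmp2 (ENSMUSG00000027358, chr2:133552159-133562885, plus strand) was at 35.9, 39.6 and 39.5 CPM in CTR and at 60.7, 104, 59.4 and 175 CPM in VPA. The CTR libraries hardly differed, and every VPA library lay above every CTR library. The mean was 38.3 ± 2.13 CPM (SD, n = 3) in CTR and 99.7 ± 54.3 CPM (SD, n = 4) in VPA, 2.6 times as high, with a log2 fold change of 1.38 (SE 0.404, 95% confidence interval 0.44 to 2.32). Its unadjusted p of 0.01 in edgeR was the lowest of the members, but over all genes tested it did not pass (adjusted p = 0.422 in edgeR and 0.137 in DESeq2, exact permutation p = 0.0857). Bmp6 (ENSMUSG00000039004, chr13:38345107-38500302, plus strand), the partner ligand in iron sensing, had 5, 12 and 6 counts in CTR and 0 in all 4 VPA libraries. Its level in CTR, 1.97, 2.37 and 3.29 CPM, lay above the 1.18, 0.591 and 1.64 CPM that a count of 0 allows in these libraries, and a count of 0 allows 0.922 to 2.41 CPM in a VPA library. The limit in single VPA libraries thus reached its CTR levels. Over the pooled counts of each group (23 in CTR, 0 in VPA) it was at least 5.98-fold lower in VPA, taking 3 counts as the limit. This bound covers counting error of the VPA zeros only. Zeros also stood where counts were predicted, and their part was not tested. Bmp6 did not pass the filter for the test. The exact permutation p of 0.0286 is the smallest that 3 libraries against 4 can give. Its 3′ end overlaps Txndc5 on the other strand, which had 47, 100 and 73 counts in CTR and 51, 127, 45 and 29 in VPA.

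The members lay on both sides of 0. In edgeR's test 0 of the 8 tested members had an adjusted p under 0.05, against 1 of all 10876 genes tested (0.00919%), and DESeq2 also called 0, where it called 0.754% of its genes lower and 0.256% higher. At an unadjusted p under 0.05 in edgeR, 1 member was higher (Bmp2; background 3.65% of all genes) and 0 were lower (background 4.62%). By sign alone, 5 of 8 had a log2 fold change below 0 (background 54.2%), and the median was -0.35 against -0.06 over all genes tested. Of these 8, Stab1 and Stab2 were counted in only 2 VPA libraries and passed the filter through their CTR libraries, so these counts are a description and no support for a direction. The same 8 had a mean of at least 5 CPM over all 7 libraries, and 5 of them had a lower mean in VPA (53.4% of all genes so filtered). Stab2, with a VPA mean of 3.77 CPM, reached this filter through CTR, so this count too is a description and no support for a direction. Over all 10 members the mean was lower in VPA for 6. The 4 members with at least 10 counts in every library divided evenly, with Kdr and Pecam1 below 0 and Bmp2 and Ehd3 above, and their median was 0.2. Groups did not overlap for 3 members. Stab1 was lower in every VPA library (background 7.41%) and Bmp2 higher in every VPA library (background 4.44%). Bmp6, which was not tested, was listed at 0 in VPA, where the limit of a 0 reached its CTR levels. Of all genes with a count, 4.78% lay lower in every VPA library. Without VPA replicate 2 the number of members without overlap was 6, with Fcgr2b, Kdr and Pecam1 added, all lower in VPA (background without that library 10.4%).

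**Figure D2:**
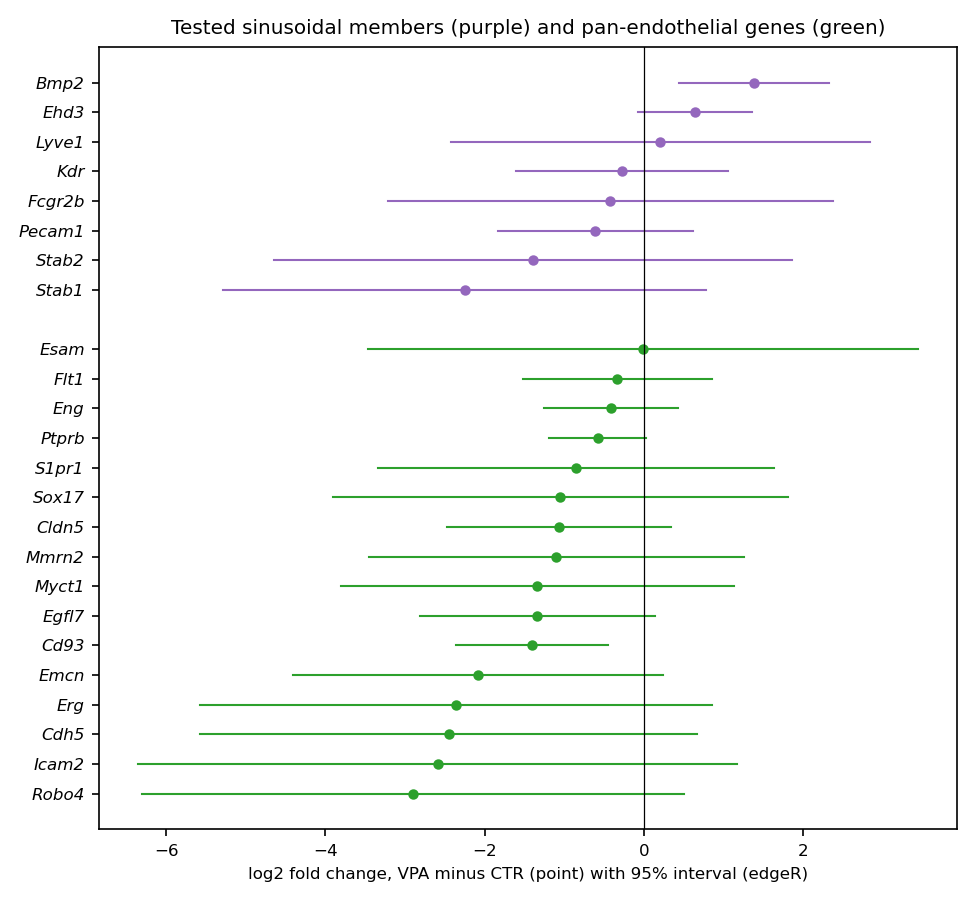
The log2 fold change (horizontal axis, VPA minus CTR) is shown as a point with its 95% confidence interval from edgeR for the 8 tested sinusoidal members (purple) and 16 of the 17 tested pan-endothelial genes (green), leaving out Tek, which was listed at 0 in every VPA library. The members lie on both sides of 0, from -2.25 for Stab1 to 1.38 for Bmp2, and the pan-endothelial genes lie below 0, from -0.01 for Esam to -2.9 for Robo4.

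The members differed more between VPA libraries than between CTR libraries. Their summed level was 318, 310 and 283 CPM in CTR and 221, 485, 173 and 426 CPM in VPA. VPA replicate 2 held 6 members above all CTR libraries, and VPA replicate 3 held 7 below them. VPA replicates 1 and 3 each had 5 members at 0, whereas each of the other libraries, CTR included, had 1. The share of the members' counts that fell on Bmp2 and Ehd3 was 28.4% to 36.3% in the CTR libraries and 46.6% to 68.7% in the VPA libraries, a description only, since these genes were set apart for their higher means in VPA. Without Bmp2 and Ehd3 the sum was 212, 198 and 203 CPM in CTR and 69.2, 259, 54.6 and 140 CPM in VPA, which leaves VPA replicate 2 alone above the CTR libraries. In whole slices, fewer endothelial cells and less RNA per endothelial cell cannot be told apart.

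Because Bmp2 was higher in VPA and most receptors were not, its level relative to each member was taken within each library, as a difference in log2 CPM with a prior count of 2. This step was chosen after its values were seen and is given without a test. The log2 ratio of Bmp2 to Kdr was -0.95 ± 0.0571 (SD, n = 3) in CTR and 0.9 ± 0.941 (SD, n = 4) in VPA, and the ratio to Pecam1 was -0.46 ± 0.408 and 1.59 ± 0.784. Every VPA library lay above every CTR library for these ratios and for those to Stab1, Stab2 and Fcgr2b. Bmp2 alone also did so and was chosen for it, so this in part restates the choice. No share over all genes was taken. The ratios to Lyve1 and Ehd3 differed by 1.83 and 0.59 between the groups, each with 2 of 4 VPA libraries above all CTR libraries.

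Values of libraries that carry the same slice culture number are given side by side, although the number was not shown to pair them. For number 71, 7 members were lower and 2 were higher with VPA (51.8% and 46.8% of all genes tested). For number 72, 6 were lower and 4 were higher (53.6% and 45.7%). For number 74, where the VPA library is replicate 2, 2 were lower and 8 were higher (52.5% and 47%). Bmp2 was higher with VPA under all 3 numbers (59.4 against 39.5, 175 against 35.9 and 104 against 39.6 CPM for 71, 72 and 74), and so was Ehd3. Stab1 and Bmp6 were lower in all 3. Kdr was lower for 71 and 72 (24.9 against 80.6 and 49.8 against 68.6 CPM) and higher for 74 (139 against 75.3 CPM).

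The pan-endothelial genes, which mark endothelium of any vessel, mostly had lower means in VPA, but none passed the adjusted threshold in edgeR. Of 22 such genes 21 had a count and 17 were tested, and all 17 had a log2 fold change below 0 (background 54.2%), with a median of -1.34. In 10 of the 17 (58.8%) every VPA library lay below every CTR library (background 7.41%), among them the junction cadherin Cdh5, the endothelial transcription factor Erg, and Emcn, Robo4, Icam2 and Myct1, named after their values were seen. Of these 10, 5 (Cdh5, Tek, Erg, Robo4 and Icam2) were counted in fewer than 3 VPA libraries and passed the filter through their CTR libraries, so the counts over tested genes are no support for a direction. With a filter on the mean over all 7 libraries (at least 5 CPM), which was chosen after seeing the data, all 19 genes had a lower mean in VPA (53.4% of all genes so filtered), and 11 of the 19 lay lower in every VPA library (7.05%). Of these 11, Tek, Tie1, Erg, Emcn, Robo4 and Icam2 had a VPA mean under 5 CPM and reached the filter through CTR, so this count too is a description and no support for a direction. At an unadjusted p under 0.05 the count was 2, Tek and Cd93 (background 4.62%), of which Tek entered the test through CTR alone. Cd93, a C-type lectin-like receptor of endothelium, was at 116, 183 and 99.8 CPM in CTR and at 30, 89.2, 35.3 and 43.8 CPM in VPA (log2 fold change -1.41, SE 0.41, edgeR adjusted p = 0.421). Tek, the angiopoietin receptor Tie2, had 33, 81 and 30 counts in CTR and was listed at 0 in all 4 VPA libraries (adjusted p = 0.239 in edgeR and 9.61e-05 in DESeq2). The phosphatase Ptprb, which opposes Tie2, and the secreted factor Egfl7 had no zeros, and both lay lower in every VPA library (log2 fold changes -0.58 and -1.34, edgeR adjusted p = 0.623 and 0.65).

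Zeros were frequent in this list: 5 of its 17 tested genes were at 0 in at least 2 VPA libraries (9.75% of all genes tested), and 0 in at least 2 CTR libraries (1.03%). Cdh5 was at 80, 65.2 and 76.2 CPM in CTR and at 0, 0, 29.7 and 26.4 CPM in VPA. Esam was listed at 0 in CTR replicate 1 beside 67.8 CPM in CTR replicate 2. Among genes with at least 10 counts in every library, 5 pan-endothelial genes remained, all 5 below 0, with a median of -0.56 against 0.02 over all genes so filtered. Esam itself was at 33.6 CPM on average in CTR and 33.1 CPM in VPA. Under the filter on the mean over all kept libraries, leaving out each library in turn left 15 to 19 genes, of which 10 to 14 lay lower in every remaining VPA library than in any remaining CTR library (background 8.87% to 13.5%). Of the 6 with a count in every library, 3 did so (background 6.06%).

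**Figure D3:**
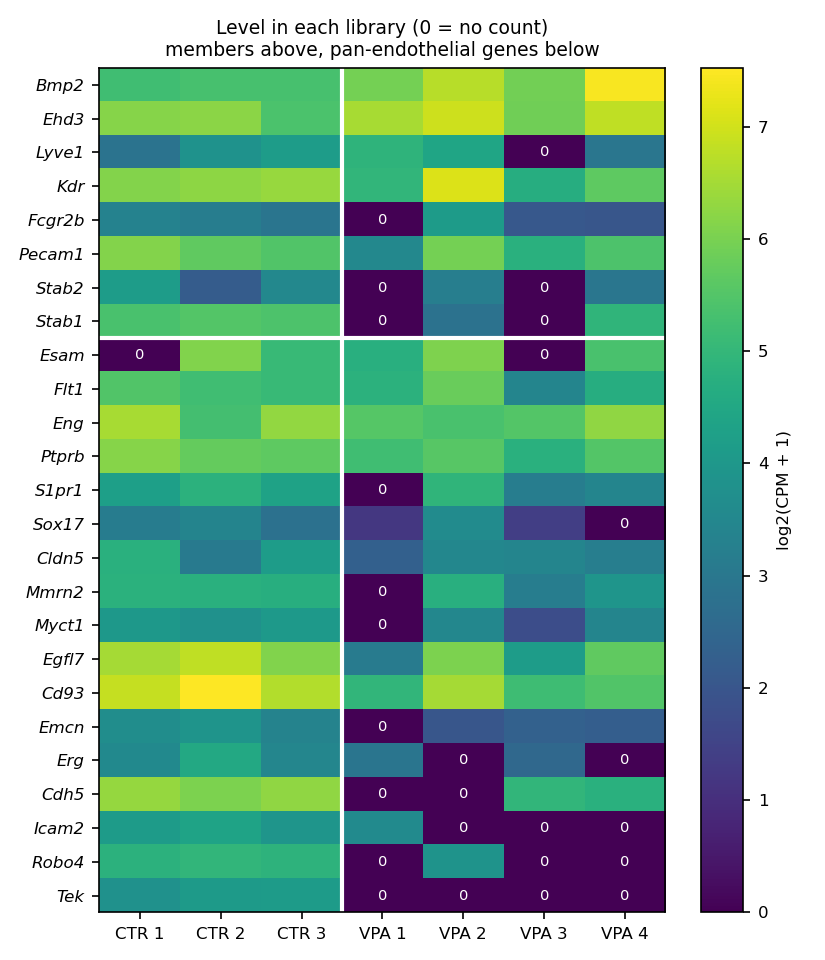
Each cell gives the level as log2(CPM + 1) in 1 library (columns) for the 8 tested sinusoidal members (rows above the line) and the 17 tested pan-endothelial genes (below), with 0 printed where a gene had no count. Listed zeros stand mostly in the VPA columns, and Bmp2 and Ehd3 are bright in all 4 of them.

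Other genes of the LSEC programme lay on both sides of 0, as the members did. Of 20 genes, 17 had a count and 13 were tested, 7 below and 6 above 0 (background 54.2% below 0) with a median of -0.23. The coreceptor Nrp1, which binds VEGF and semaphorins, was at 181, 125 and 195 CPM in CTR and at 88.1, 118, 128 and 130 CPM in VPA (log2 fold change -0.52, edgeR unadjusted p = 0.0415, adjusted p = 0.575). The Wnt amplifier Rspo3 was at 58.6 ± 15.5 CPM (SD, n = 3) in CTR and 89.5 ± 52.9 CPM (SD, n = 4) in VPA, the transcription factor Meis2 at 35.4 ± 6.13 and 44.2 ± 11.6 CPM, and the VEGF-C receptor Flt4 at 23.6 ± 7.08 and 14.1 ± 11.7 CPM (edgeR adjusted p = 0.848, 0.881 and 0.883). The mannose receptor Mrc1, which LSEC share with macrophages, was at 21 ± 5.33 and 16.6 ± 10.6 CPM. Cd209b, Wnt2 and Wnt9b, among the most specific genes of the list, were listed at 0 in all 7 libraries.

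The large-vessel list had a lower sum in every VPA library, with no gene past the threshold. Of 14 genes of continuous and large-vessel endothelium 6 were tested, 5 below and 1 above 0 (background 54.2% below 0) with a median of -0.86, and 0 had an unadjusted p under 0.05 (background 4.62% lower and 3.65% higher). Their summed level was 194 to 241 CPM in CTR and 86.2 to 189 CPM in VPA. Cd34 and Plvap, which are gained when sinusoids take on a capillary phenotype, were at 18.7 ± 6.81 and 37.1 ± 15.2 CPM (SD, n = 3) in CTR and at 19.6 ± 6.25 and 25.3 ± 21 CPM (SD, n = 4) in VPA (edgeR adjusted p = 0.985 and 0.955). The arterial ligand Efnb2 had a log2 fold change of -1.45 (edgeR adjusted p = 0.626), and Esm1 had one of -1.17 (edgeR adjusted p = 0.88). Of the 4 lymphatic genes, Ccl21a has 2 gene entries, and only Pdpn and Prox1 were tested, and the summed level of 82.4 to 135 CPM in CTR and 88.4 to 166 CPM in VPA was mostly that of Prox1, which hepatocytes also express. Pdpn was at 9.85, 23.7 and 6.03 CPM in CTR and at 17.6, 0, 11.2 and 10.6 CPM in VPA, and Ccl21a was counted in CTR replicate 1 alone. Prox1 was at 65.8, 60.9 and 129 CPM in CTR and 148, 119, 152 and 77.8 CPM in VPA.

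Among VEGF and angiopoietin ligands 3 of 4 tested genes were below 0 (background 54.2%). Pgf, a ligand of Flt1, was at 25.6, 43.2 and 34.5 CPM in CTR and at 10.4, 17.2, 17.7 and 4.53 CPM in VPA, with no overlap (log2 fold change -1.46, edgeR unadjusted p = 0.0189, adjusted p = 0.501). Vegfb was at 97.7, 47.1 and 76.2 CPM in CTR and at 32, 20.6, 50.6 and 0 CPM in VPA (log2 fold change -1.52, edgeR adjusted p = 0.768). Vegfa, the ligand of Kdr, was at 60.4 ± 9.87 CPM (SD, n = 3) and 49.8 ± 14.3 CPM (SD, n = 4), and Angpt2, the context-dependent antagonist of Tek, at 24.8 ± 2.29 and 33.8 ± 7.91 CPM (edgeR adjusted p = 0.905 and 0.771). Of the 6 tested receptors 5 were below 0 (background 54.2%), and 2 of these, Tek and Nrp1, already counted in the lists above, had an unadjusted p under 0.05 (background 4.62%), Tek having entered the test through CTR alone.

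Around Bmp2, genes of the BMP pathway lay on both sides of 0. The other tested ligands, Bmp4, Bmp10 and Gdf2, had log2 fold changes of 0.41, -0.24 and -0.22 (edgeR adjusted p = 0.968, 0.953 and 0.968). The 8 tested receptors and coreceptors had a median of -0.18, the 3 tested antagonists -0.05 and the 6 tested targets -0.15, and 0 of these 17 genes had an unadjusted p under 0.05 (background 4.62% lower and 3.65% higher). Hamp, which encodes hepcidin, was at 136, 51.2 and 202 CPM in CTR and at 126, 69.5, 811 and 0 CPM in VPA (edgeR adjusted p = 0.945). Its VPA mean of 252 CPM, above the 130 CPM of CTR, rested on VPA replicate 3, without which it was 65.2 CPM, below CTR. The immediate targets Id1, Id2 and Id3 had log2 fold changes of -0.39, -0.77 and 0.48. Of 11 hepatocyte genes under angiocrine Wnt control 6 were tested, 4 above and 2 below 0 (background 54.2% below 0). Tbx3 and the Wnt feedback inhibitor Znrf3 lay higher in every VPA library (log2 fold changes 0.86 and 1.01, edgeR adjusted p = 0.639 and 0.723; background 4.44%).

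Markers of the other cell types of the slice are given beside these results because several members are shared with them. The summed level of 13 Kupffer cell and macrophage markers was 334 to 477 CPM in CTR and 346 to 614 CPM in VPA. Of the 8 tested genes 3 were below 0 (background 54.2%). Of the defining markers, Adgre1 and Marco were at 0 in all libraries, Vsig4 had 103 counts in CTR replicate 2 alone, and Clec4f was at 10.6 ± 5.73 and 13.8 ± 13.6 CPM. The smallest p of the list were those of C1qc (16.8 ± 11.8 and 37.7 ± 15.5 CPM) and Cd68 (87.8 ± 26.9 and 138 ± 43.2 CPM). Both had higher means in VPA (edgeR adjusted p = 0.65 and 0.672). Cd5l and Csf1r were also above 0, and C1qa, C1qb and Lyz2 were below 0. The 12 stellate cell markers, all tested, had 9 genes below 0 (background 54.2%). The fibrillar collagens Col1a1 and Col3a1 lay lower in every VPA library (background 7.41%). Their log2 fold changes were -1.66 and -1.51 (edgeR adjusted p = 0.112 and 0.417), and Col1a1 was also called by DESeq2. Lrat, with the next smallest p of the list, was at 45 ± 15.7 and 19.9 ± 11.1 CPM (edgeR adjusted p = 0.65). The summed level of the stellate cell list was 1570 to 3370 CPM in CTR and 1220 to 2800 CPM in VPA. Hepatocyte markers summed to 4910 to 11300 CPM in CTR and 2780 to 9930 CPM in VPA. Ass1 was listed at 0 throughout, and 3 of 9 tested genes were below 0 (background 54.2%). Cholangiocyte markers summed to 272 to 615 CPM and 258 to 742 CPM, and leukocyte and platelet markers to 30.7 to 59.5 CPM and 9.79 to 56.2 CPM. B cell markers did not exceed 3.75 CPM in any library. Whether the makeup of the slices had a part in the endothelial values was not tested.

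**Figure D4:**
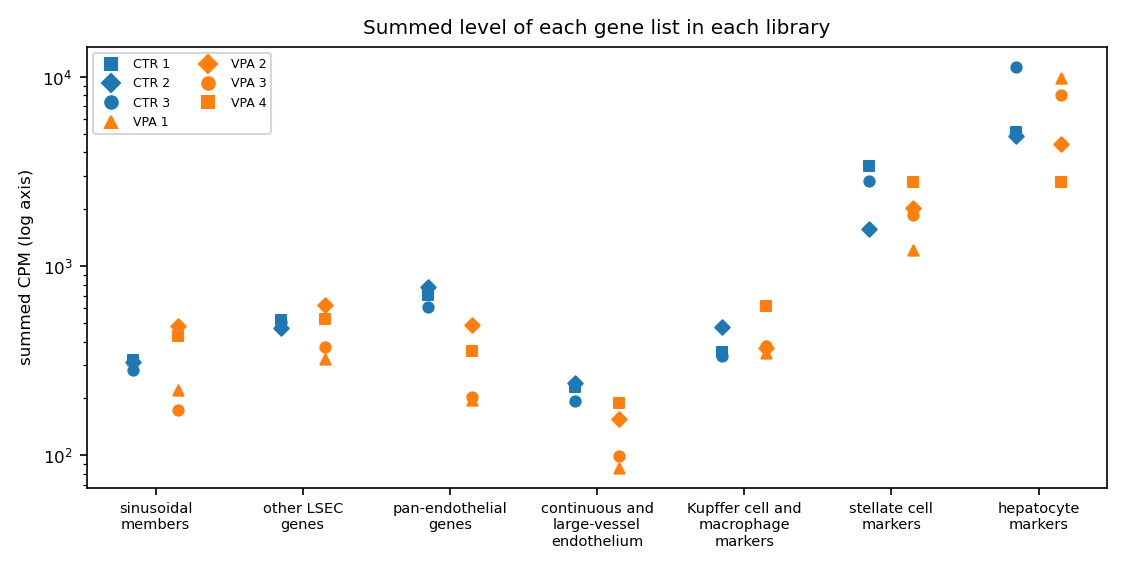
The summed CPM of 7 gene lists (vertical axis, log scale) is plotted for each CTR library (blue) and VPA library (orange), with symbols for slice culture number. The pan-endothelial sums (608 to 778 CPM in CTR, 196 to 488 CPM in VPA) and the large-vessel sums do not overlap between the groups, and the sums of the sinusoidal members, of the other LSEC genes and of the other cell types do.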

How the data were processed

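RNA-seq counts of 3 CTR and 4 VPA libraries were analysed. The authors prepared QuantSeq 3′ FWD libraries, mapped single-end reads to GRCm38.p6 with STAR, used StringTie, and deposited raw counts per Ensembl gene (per the labels, mm10). The counting program, strand setting and annotation release are not given in the sources used here, so how the listed zeros arose is not known. Counts were tested in R 4.3.3 with edgeR 4.0.16 (filterByExpr, TMM, robust quasi-likelihood fit, condition only), with Benjamini-Hochberg adjustment over 10876 genes and a threshold of 0.05. DESeq2 1.42.0 was an alternative, although the study names it, because edgeR was set as the test for counts. Single members were compared on log2 CPM (prior count 2) by two-sided exact permutation over 35 splits. The code was tested on simulated data.

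The members and lists were chosen with earlier results of these data known. Named genes were all members, some of the genes with the smallest p in each list (up to 4, at least 5 CPM), defining markers, and the 5 genes most like the members. Not every gene that met this rule was named. Alternatives were other normalizations, filters, dispersions and blocks, and leaving out each library. Same-numbered libraries were checked for shared deviations.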

Additional observations from a re-analysis of the deposited data

Results flagged for a closer look

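Of 29 measures checked in the 4 VPA libraries with Dixon's criterion, 2 had a library far from the rest, where chance flags about 0.05 of such groups. The counts on genes of VPA replicate 2 were 3102450, against 1400887 to 1515954 in the other VPA libraries (ratio 0.932). This is the library in which Kdr and Fcgr2b exceeded all CTR libraries and which held 25 of the 28 Clec4g counts. Whether depth had a part in these values was not tested. The summed level of Kupffer cell and macrophage markers in VPA replicate 4 was 614 CPM, against 346 to 377 CPM in the other VPA libraries (ratio 0.884). This is the VPA library with the highest Stab1 level, 29.5 CPM, and a possible macrophage share of Stab1 was not tested.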

How the results depend on the processing

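Under every alternative run, 0 members passed the adjusted threshold, Bmp2 stayed above 0 with an unadjusted p of 0.00154 to 0.0362, and Stab1, Stab2, Fcgr2b, Kdr and Pecam1 kept a sign below 0 wherever they were tested, with libraries left out from -4.08 to -1.84, -2.15 to -0.85, -1.92 to -0.01, -1.09 to -0.02 and -1.03 to -0.3. Over all genes, edgeR called 1, DESeq2 154, edgeR without a filter 10, and with at least 10 counts in every library 36. Without a filter 1 member was lower and 2 were higher at an unadjusted p under 0.05; with at least 10 counts in every library 2 were higher, and only 5 pan-endothelial genes were tested, all lower. With libraries left out in turn, 0 to 2 of all genes were called, 0 to 1 members were lower (Kdr without VPA replicate 2, Stab1 without VPA replicate 4) and 1 to 2 were higher (Ehd3 added without VPA replicate 3). The members' median ranged from -1.06 without VPA replicate 2 to -0.13 without VPA replicate 3, 3 to 6 members had no overlap, and 16 to 20 pan-endothelial genes were tested and lower, 10 to 14 of the 17 without overlap, some of which entered the test through CTR alone (over all genes, 9.42% to 14% lay lower in every remaining VPA library). Of genes with a count in every library, 6 were pan-endothelial, all with a lower mean in VPA and 3 without overlap (6.06% of all such genes). Lyve1 ranged from -0.39 to 0.6 and turned to -0.12 without CTR replicate 1, -0.39 without VPA replicate 1 and -0.02 without VPA replicate 2. The causes were not tested. Exact permutation tests were not repeated with a library left out, because they could then not go below 0.1 or 0.0667.

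The replicate numbers and slice culture numbers were used as a replicate block. Correlations of deviations were 0.107, 0.0256 and 0.0546 for cultures 71, 72 and 74 and -0.0539 to 0.107 for the replicate numbers. Not every one passed 0.1, so neither number was taken to pair the libraries. As a hint from the data, of 6 numbered libraries, 5 correlated best with the library of their own culture number and 3 with that of their own replicate number. With the replicate number as block, 0 genes were called over all, 1 member was lower (Stab1, -5.16) and 2 were higher (Ehd3, 0.55, and Bmp2, 0.92). The members' median was -0.81, and Lyve1 was at -0.11. Stab2 was at -3.68, Fcgr2b at -1.3, Kdr at -0.65 and Pecam1 at -0.97 under this block. With the slice culture as block, 0 genes were called, 2 members were higher and Lyve1 was at -0.9. Under each block 16 of 17 pan-endothelial genes were lower.

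Depth limits the statements on Bmp6 and Clec4g, which did not pass the filter on low counts. Intervals and limits cover counting error only.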

Other observations

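The genes whose library-to-library deviations from their group means were most like those of the members were Grsf1, Fbxl8, Selenoo, Atxn2l and G6pc3, with Pearson r of 0.992 to 0.993 over 7 libraries, against a median of 0.0638 and a 95th percentile of 0.77 over 10615 genes compared. The r values are descriptions. Of these genes, 4 were listed at 0 in VPA replicates 1 and 3, the libraries in which Stab1 and Stab2 were listed at 0, and present in the other libraries. Atxn2l, which encodes an RNA-binding protein of most cell types, was at 28, 27.8 and 23 CPM in CTR and at 0, 50.4, 0 and 22.7 CPM in VPA. The exception was Grsf1, which encodes a mitochondrial RNA-binding protein, at 48.8 to 54 CPM in CTR and 32.9 to 57.8 CPM in VPA. Because the genes were chosen for this likeness, the shared zeros are part of the choice and not a separate finding.

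Among the members, the correlation of each with the mean of the others, taken on the same deviations, was highest for Stab2 (r = 0.879) and Kdr (0.872) and lowest for Lyve1 (0.206), over 7 libraries. Bmp2 (0.801) and Stab1 (0.781) lay between them, although their group means differed in opposite directions.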
